A study of Zea mays with 12 samples.

Results

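Transcript levels in germinating maize embryos of the low-temperature-sensitive inbred line Ji 853 (line 102) were compared with those of the low-temperature-resistant inbred line Zao 8-3 (line 55) after 2 h at 10 °C. The members are the 3 libraries LT_102 and the 3 libraries LT_55, 6 of the 12 libraries in the series, taken by their sample titles. Within them, the description rests on 16618 well-measured genes, which had a mean FPKM (read fragments scaled to transcript length and to the mapped reads of the library) of at least 1 in both lines, out of 22985 genes tested and 33589 genes listed. A further 1811 genes reached this level only in line 55 and 2022 only in line 102, and they are not described gene by gene. Seeds of both lines were imbibed at 25 °C for 6 h and then kept for 2 h at 10 °C (LT) or at 25 °C (CT), and embryos were isolated for poly(A) RNA sequencing. LT and CT are the study's low-temperature and normal-temperature treatments, and the same lines at 25 °C (6 libraries) are given beside the 10 °C values only to show which differences were also there without cold. No mutant, transgene or agent entered any group. Each line is a single inbred genotype, so a difference between them is a difference between 2 genotypes and not between classes of tolerant and sensitive maize.

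A dry maize embryo holds stored messenger RNAs, dehydrins, other late embryogenesis abundant (LEA) proteins and oil bodies laid down as the seed matured. On imbibition it resumes respiration, breaks down raffinose-type sugars and oil, and restarts translation, chromatin assembly and DNA repair ahead of cell division. Cold during these first hours slows enzymes and stiffens membranes, and soluble sugars, LEA proteins, antioxidant enzymes and membrane lipid composition are commonly studied as cold protection in seeds.

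The 6 libraries at 10 °C held 47148886 to 67873652 counts. Log2 profiles of counts scaled to library size, without scaling to transcript length, were compared across tested genes. Profiles of replicates of the same group correlated at 0.966 to 0.978, and profiles of different lines at 0.717 to 0.725. The embryo label was checked with marker genes. Of 9 embryo markers, 7 were matched (vp1, dhn1, the globulins glb1 and glb2, the oleosins ole1 and oleosin3, and emb5, listed as esp5), and their summed FPKM was 18993 to 19877 in LT_55 and 23298 to 25547 in LT_102, without overlap (exact permutation test, p = 0.1, the smallest that 3 against 3 libraries allow). Only 2 of these 7 genes passed the threshold for a difference given below, glb1 and esp5, both higher in line 102. Their log2 differences were 0.83 and 0.95, whereas glb2 had -0.10. The gene glb1 alone was at 3110 to 4308 FPKM in LT_55 and 5721 to 9068 in LT_102. In these bulk samples, fewer cells of a type and less RNA per cell cannot be told apart. Endosperm markers were low, and their sum, over 5 of 6 matched genes, was 3.04 to 4.69 in LT_55 and 6.93 to 7.84 in LT_102. The 28 zein genes, which encode the storage proteins of the endosperm, summed to 26.6 to 36.1 in LT_55 and 2.92 to 7.30 in LT_102, at most 0.00374% of all FPKM. None of the 4 endosperm transfer layer markers was matched, and of the 3 aleurone markers only c1 was, which is described below. The part of remaining endosperm or aleurone in the differences was not tested. Both lines were mapped to the genome of another inbred line, B73. For any gene, a lower transcript level and reads lost to sequence differences from B73 or to a missing copy cannot be told apart.

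The lines differed widely. Where a gene is called when it differs by 1.5-fold or more with p below 0.05 before adjustment, the study's own threshold, 3797 well-measured genes were lower in line 102 (22.8%) and 3314 were higher (19.9%), together 7111 genes or 42.8%, whereas 9507 were not called. Over all 22985 tested genes 51.1% were called, 5994 lower (26.1%) and 5760 higher (25.1%). With a Benjamini-Hochberg adjusted p below 0.05 from edgeR's quasi-likelihood test in place of the unadjusted p, 7002 well-measured genes (42.1%) passed, 3746 lower (22.5%) and 3256 higher (19.6%). FPKM did not overlap between the 3 LT_102 and the 3 LT_55 libraries in 11085 genes (66.7%), of which 5262 (31.7%) lay lower and 5823 (35%) higher in line 102. Fold changes are given as log2 of line 102 over line 55 with the standard error of the fit (n = 3 libraries per line), and adjusted p values are Benjamini-Hochberg values from edgeR over all tested genes.

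Most differences were moderate. Across well-measured genes the median log2 fold change was -0.02, the middle 50% of genes lay between -0.54 and 0.48, the median absolute log2 fold change was 0.51 and the median standard error was 0.15. A difference of 1.5-fold to 2-fold was found for 1649 lower and 1598 higher genes, and 1 of at least 8-fold for 169 lower and 101 higher genes. The share called was 42.9% of the 3957 genes with a mean FPKM of 1 to 5, 47.7% of the 5950 genes at 5 to 20, 38.8% of the 5074 genes at 20 to 100 and 37.0% of the 1637 genes with a mean FPKM of 100 or more. In the plot of mean FPKM in both lines, called genes lie on both sides of the diagonal from low to high levels.

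**Figure D1:**
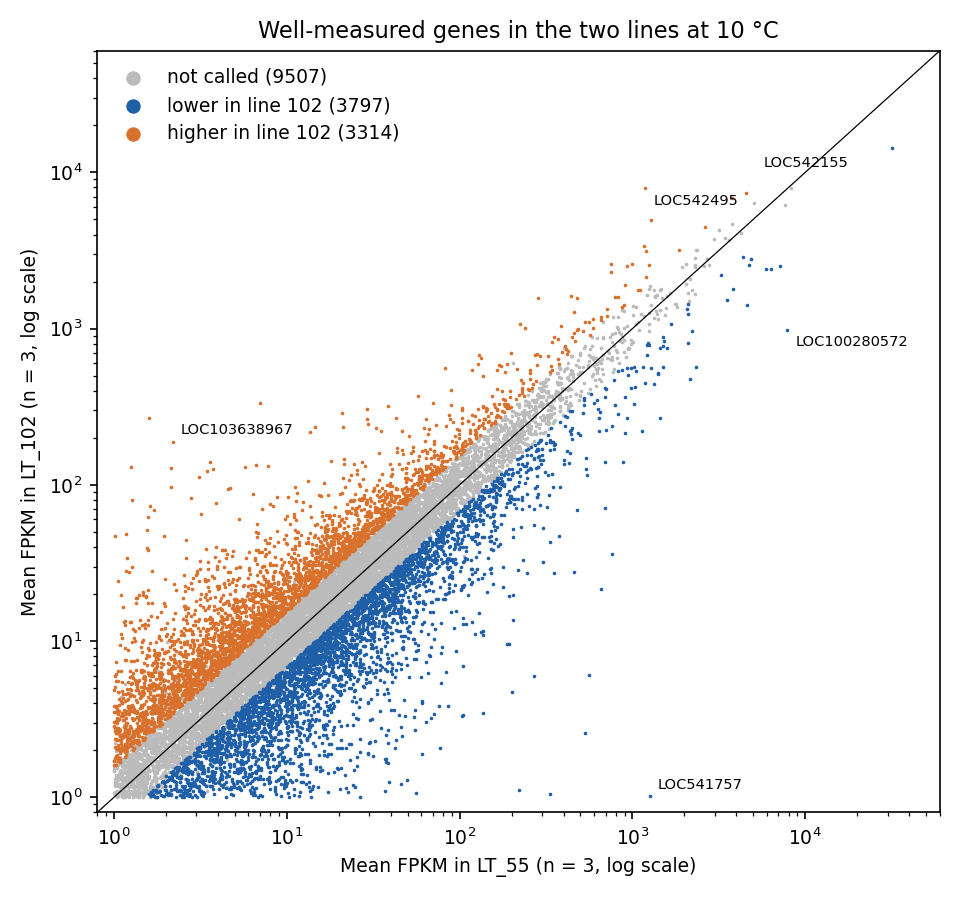
Mean FPKM of each of the 16618 well-measured genes in LT_55 (horizontal, log scale, n = 3) and LT_102 (vertical, log scale, n = 3); the line marks equal levels. Blue points are the 3797 genes called lower in line 102, orange points the 3314 called higher and grey points the 9507 not called.

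The genes with the largest differences are given next, 8 in each direction, among those with an informative description (51.5% of well-measured genes have none) and without overlap between the lines. Gene positions are those of the deposited table, on B73 RefGen_v4. The largest decrease was that of LOC541757 (chr9:8983450-8984644), described as an anthocyanin regulatory C1-like protein and listed by RefSeq under the synonym c1, the MYB factor that switches on anthocyanin synthesis in the aleurone and scutellum. Its FPKM was 1207, 1334 and 1231 in LT_55 and 1.19, 1.88 and 0 in LT_102, from counts of 5120, 6193 and 6185 against 5, 8 and 0. It was thus abundant in every library of line 55 and close to zero in every library of line 102 (log2 fold change -10.18 ± 0.48, adjusted p = 5.4e-09, edgeR), and at 25 °C it differed by -9.07.

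Peroxidase 1 (LOC100281950, chr10:86312416-86313681), of the class of secreted peroxidases that act on phenolics and hydrogen peroxide, stood at 137, 137 and 133 FPKM in LT_55 and 3.28, 4.97 and 2.14 in LT_102 (-5.33 ± 0.24). An early light-induced protein (LOC541918, chr7:9985409-9986286), of a family that binds free chlorophyll in stressed plastids, had 36.8, 61.9 and 18.3 FPKM against 1.05, 2.53 and 0.165 (-4.84 ± 0.98, adjusted p = 0.00092, edgeR). Line 55 was above line 102 in each library, but its own replicates varied more than 3-fold, so that the size of this difference is poorly fixed. A cytochrome P450 gene (LOC100274356, chr5:33104125-33106003) was at 89.1, 106 and 62.9 FPKM against 2.83, 4.58 and 4.03 (-4.53 ± 0.26). The antifungal protein zeamatin (sip1, chr7:165699534-165700461), which permeabilizes fungal membranes, was at 34.6, 34.1 and 44.4 FPKM against 1.16, 1.89 and 2.03 (-4.51 ± 0.29). Both were separated by a wide gap between the lines.

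The other 3 of these lower genes carry annotations that need care. LOC103638067 (chr1:117369615-117370894) is described as a succinate dehydrogenase assembly factor, but its GO terms concern DNA binding by RNA polymerase II factors; it was at 53.1, 45.2 and 50.2 FPKM in LT_55 and 1.44, 1.04 and 1.37 in LT_102 (-5.31 ± 0.17). LOC103641885 (chr10:134563093-134568691), with conflicting domain and ortholog annotation, had 52.2, 50.9 and 34.3 FPKM against 0, 3.08 and 0.576 (-5.17 ± 0.91). Coatomer subunit gamma-2 (LOC103645564, chr1:270976200-270978224), a coat protein of Golgi vesicles, had 33.8, 40.4 and 37.2 FPKM against 1.6, 0 and 1.71 (-5.10 ± 0.56). For the last 2 genes a library of line 102 was at 0 while the others were not.

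Among genes higher in line 102 the largest difference was that of LOC103638967 (chr9:120016804-120019213), described as callose synthase 7 although its GO terms are those of an ATP-dependent RNA helicase. It was at 1.88, 2.69 and 1.99 FPKM in LT_55 and 191, 188 and 183 in LT_102 (6.36 ± 0.13, adjusted p = 1.1e-11, edgeR). A glucose-inhibited division protein A gene (LOC100280078, chr3:83071437-83074377), whose bacterial counterpart modifies transfer RNA, was at 1.33, 1.29 and 1.2 FPKM against 82.6, 78.3 and 78.7 (5.92 ± 0.28). In both genes the 3 replicates of each line lay close together.

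GABA transaminase POP2 (LOC103631410, chr6:127630187-127632949), which breaks down the stress metabolite gamma-aminobutyrate, was at 2.28, 2.02 and 2.09 FPKM in LT_55 and 131, 126 and 126 in LT_102 (5.84 ± 0.12, adjusted p = 1.1e-11, edgeR). Its level in line 102 was thus far above that of line 55 in every library, with almost no spread. An inactive carboxylesterase gene (LOC103642184, chr10:148200915-148202841) was at 1.22, 1.61 and 0.211 FPKM against 46.6, 42.1 and 53.3 (5.48 ± 0.44). The glutathione transferase gene gst1 (chr8:178412108-178414563), of the enzymes that conjugate glutathione to electrophiles, was at 3.66, 3.88 and 2.79 FPKM against 130, 137 and 101 (5.11 ± 0.18). Each of these genes was low in all 3 libraries of line 55.

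Both large transporters in this list belong to the G subfamily of ABC proteins, pumps that include exporters of lipids and hormones. LOC103632597 (chr7:94949736-94960380) was at 1.28, 3.16 and 0.694 FPKM in LT_55 and 83.7, 82.8 and 40.4 in LT_102 (5.28 ± 0.49), and LOC103633239 (chr7:159034927-159046858) at 2.12, 1.5 and 1.13 against 61.7, 54.6 and 69.4 (5.25 ± 0.34). A gene for splicing factor 3B subunit 2 (LOC103631172, chr6:84657326-84665341), part of the complex that recognizes the branch point of introns, was at 1.84, 1.45 and 1.37 FPKM against 50.5, 50.2 and 52.8 (4.99 ± 0.17). The lowest library of line 102 was well above the highest of line 55 for all 3 genes.

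**Figure D2:**
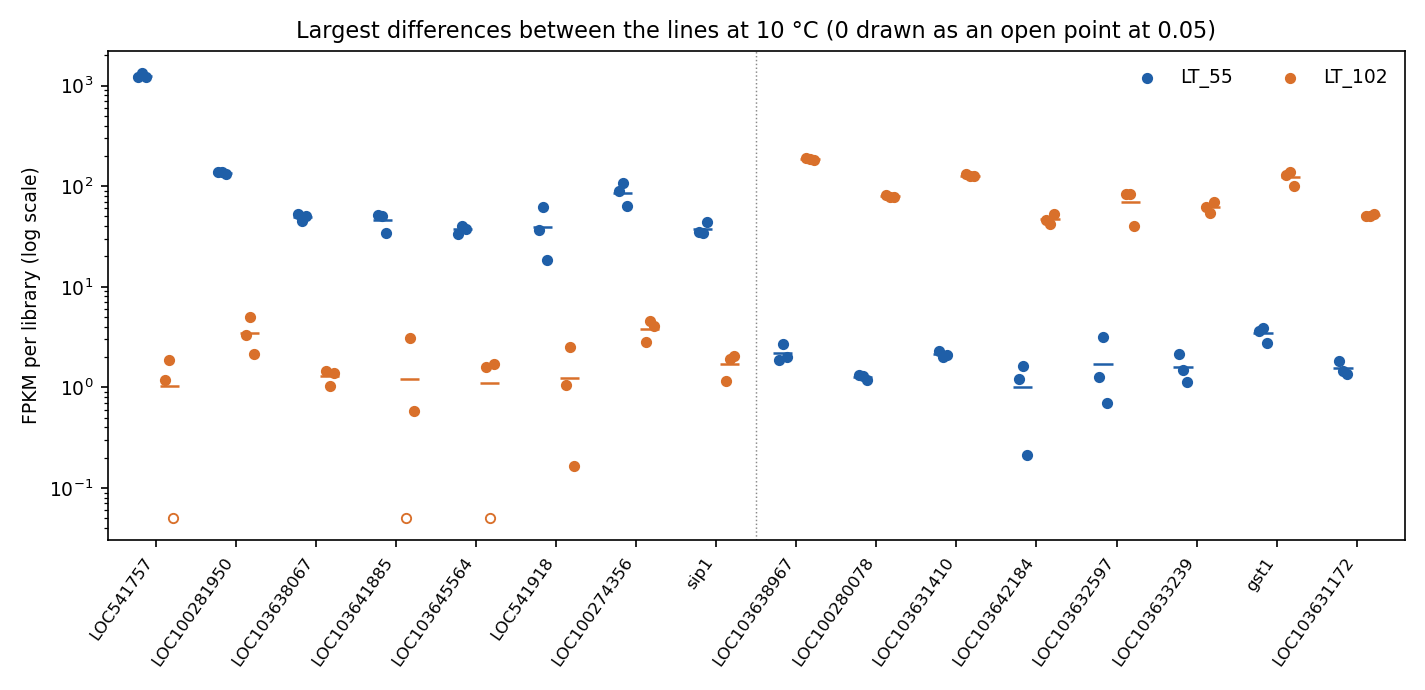
FPKM in each library at 10 °C (log scale) for the 8 lower and the 8 higher genes described, with LT_55 in blue, LT_102 in orange, bars at the means of 3 libraries and values of 0 drawn as open points at 0.05. By the rule of choice the lines do not overlap in any of the 16 genes, from LOC541757 (1207 to 1334 against 0 to 1.88) to LOC103638967 (1.88 to 2.69 against 183 to 191).

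Among the most abundant genes that differed, several are known for seed protection and defense. The most abundant was LOC542155, without an informative description but with GO terms for zinc ion and DNA binding, at 31778, 33596 and 30291 FPKM in LT_55 and 14474, 12410 and 15773 in LT_102 (-1.21 ± 0.11). A gamma-thionin (LOC100280572), of a family of small antimicrobial peptides, stood at 7512, 7428 and 8615 FPKM against 979, 1084 and 885 (-3.05 ± 0.13, adjusted p = 2.1e-09, edgeR). The LEA group 2 gene magi2594 was at 6419, 6854 and 5823 FPKM against 2515, 2257 and 2408 (-1.46 ± 0.08), but it overlaps another gene on the opposite strand, and whether strand was used in counting is not given. All 3 were lower in every library of line 102.

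In the other direction, LOC542495, a 9S-lipoxygenase of the branch that makes defense oxylipins, was at 1241, 1436 and 890 FPKM in LT_55 and 8118, 8400 and 7184 in LT_102 (2.69 ± 0.16, adjusted p = 3e-08, edgeR). The embryo storage globulin glb1 was at 3820, 3110 and 4308 FPKM against 5848, 5721 and 9068 (0.83 ± 0.19), and without the third replicate of LT_102 its log2 fold change was 0.57, below the threshold. LOC541967, a largest-subunit gene of RNA polymerase II, was at 5075, 4566 and 4062 FPKM against 7510, 7008 and 7508 (0.64 ± 0.13), and at 25 °C, with 0.34, it was not called. These 3 genes did not overlap between the lines.

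The remaining 4 of the 10 most abundant called genes were lower in line 102. LOC100274918, with a GO term for defense to fungus, was at 6978, 7841 and 6522 FPKM against 2632, 3015 and 1920 (-1.54 ± 0.16). UDP-glucose 4-epimerase (LOC542127), which supplies UDP-galactose, was at 4998, 3996 and 8809 FPKM against 1933, 2074 and 3234 (-1.35 ± 0.30). A 14-3-3 protein gene (LOC542285) was at 4608, 4430 and 5618 FPKM against 1645, 3250 and 3499 (-0.85 ± 0.31). The last call was lost without the third replicate of LT_55 (-0.71) or the first of LT_102 (-0.57), and this gene too overlaps a neighbour. The fourth, a tryptophan synthase gene, is described with aromatic amino acids.

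Pathways and GO terms were then read by how many of their well-measured members were called, beside 22.8% lower and 19.9% higher over all well-measured genes and a median of -0.02. The terms described are those with the lowest and highest medians or shares among 102 KEGG pathways and 751 GO terms of at least 15 well-measured genes, and a list of stress, seed and metabolism terms. Terms share genes, and no test of a term was made. A gene named as the largest of its term was taken only from genes without overlap between the lines. Its lack of overlap is therefore part of the choice and not a result, and 66.7% of all well-measured genes had none. In the plot of term medians, the lowest medians belong to membrane-anchored proteins, transporters and gluconeogenesis, and the highest to nucleosomes.

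**Figure D3:**
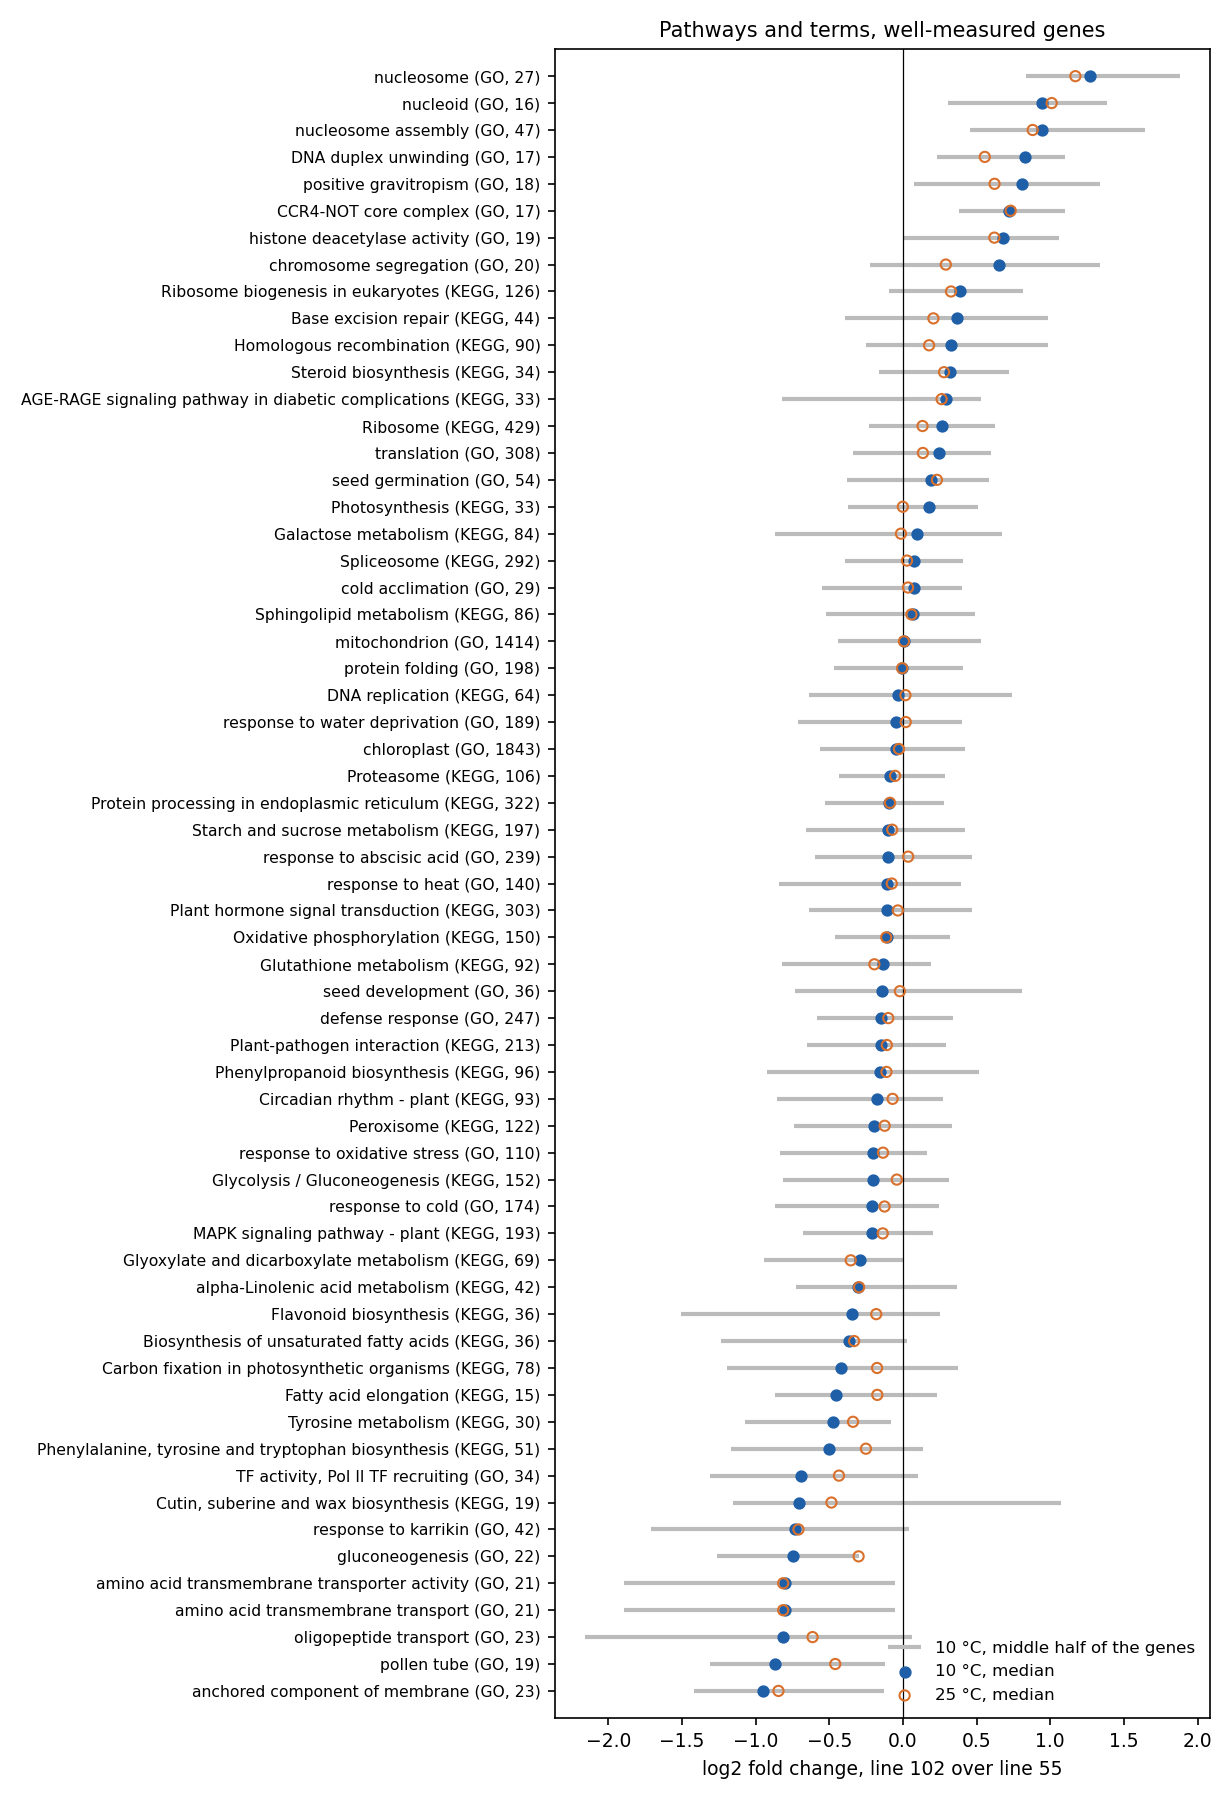
Median log2 fold change of line 102 over line 55 for 61 KEGG pathways and GO terms, with the number of well-measured genes in brackets; filled points are medians at 10 °C, grey bars span the middle 50% of genes at 10 °C and open points are medians at 25 °C. Medians run from -0.95 (anchored component of membrane) to 1.27 (nucleosome), and most response terms lie near 0.

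Gluconeogenesis, which rebuilds sugars from the products of oil breakdown and shares most enzymes with glycolysis, was lower in line 102. Of 22 genes, 12 were lower and 1 was higher, with a median of -0.75 at 10 °C and -0.30 at 25 °C, where 8 were lower and 1 was higher, and 21 of the 22 also belong to the KEGG pathway of glycolysis and gluconeogenesis. Their summed mean FPKM was 6459 in LT_55 and 3001 in LT_102. Much of this sum came from cytosolic glyceraldehyde-3-phosphate dehydrogenase, which interconverts triose phosphates and bisphosphoglycerate. Its gene LOC542367 (GAPC1, chr4:38551602-38555126) was at 3623, 3742 and 3278 FPKM in LT_55 and 1582, 1538 and 1434 in LT_102 (-1.27 ± 0.08, adjusted p = 4.7e-08, edgeR), with -1.34 at 25 °C. GAPC2 was at 1107, 1050 and 1406 FPKM against 481, 473 and 385 (-1.46 ± 0.13). Every library of line 102 was below every library of line 55 in both genes.

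Other enzymes of the same stretch of the pathway followed. Triosephosphate isomerase (TIM) was at 313, 326 and 300 FPKM in LT_55 and 119, 128 and 113 in LT_102 (-1.43 ± 0.09). A second isomerase gene, LOC100280823, had 9.69, 8.67 and 6.6 FPKM against 1.85, 2.17 and 0.73 (-2.43 ± 0.32), with -0.72 at 25 °C. Glucose-6-phosphate isomerase (phi1) was at 726, 718 and 644 FPKM against 370, 372 and 349 (-0.98 ± 0.09). None of these genes overlapped between the lines.

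Cytosolic fructose-1,6-bisphosphatase (LOC100284739, chr8:102868747-102871928), a control point of sugar synthesis, was at 29, 26.6 and 27.2 FPKM in LT_55 and 11.3, 12.4 and 12.6 in LT_102 (-1.23 ± 0.10). At 25 °C its libraries were at 17.5, 20.8 and 22 against 15.7, 14.8 and 14.7 FPKM, a difference of -0.46 that was not called. The line by temperature interaction had an unadjusted p of 8.4e-05 and an adjusted p of 0.14 (edgeR), so this change of size with temperature did not pass. PEP carboxykinase, the entry enzyme of gluconeogenesis, was not called in either of its 2 well-measured genes: LOC541622 was at 363, 327 and 504 FPKM against 218, 290 and 331 (-0.56 ± 0.21), with overlapping lines, and pck2 had -0.24. LOC541622 was close to the threshold and passed it when replicate 1 or 2 of LT_55 or replicate 2 or 3 of LT_102 was left out (-0.59 to -0.70).

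Genes were also grouped by ortholog, a grouping made after values were seen. Of 6 genes for this type of glyceraldehyde-3-phosphate dehydrogenase 4 were lower and 1 was higher, of 7 triosephosphate isomerase genes 4 were lower and 0 higher, and of 11 pyruvate kinase genes 6 were lower and 2 higher (summed FPKM 950 against 480). Enolase had 2 lower and 0 higher of 5. Aldolase was mixed, with 4 lower and 2 higher of 7 genes and sums of 356 and 387, and so was glucose-6-phosphate isomerase, with 1 lower and 1 higher of 7. Further on, the pyruvate dehydrogenase E1 beta gene LOC542483, of the complex that feeds acetyl-CoA into respiration or fatty acid synthesis, was at 1374, 1374 and 1576 FPKM against 296, 272 and 241 (-2.47 ± 0.10). Alcohol dehydrogenase adh1, which sustains fermentation in waterlogged seeds, was at 660, 525 and 925 FPKM against 402, 474 and 364 (-0.82, or -0.54 and no longer called without the third replicate of LT_55). The wider KEGG pathway, with 152 genes, had 51 lower and 20 higher and a median of -0.20. Carbon fixation, which shares sugar phosphate enzymes with it, had 34 lower and 16 higher of 78 (-0.42).

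Biosynthesis of phenylalanine, tyrosine and tryptophan, the shikimate pathway and its branches, had 23 lower and 5 higher of 51 genes and a median of -0.50 (-0.25 at 25 °C). Some of the 51 are described otherwise, at least in part. Examples are the zinc finger genes LOC100194377 (1.23, called higher) and LOC100283646 (-0.53, not called). DAHP synthase (LOC100284499), the first enzyme of the pathway, was at 208, 209 and 196 FPKM in LT_55 and 49.1, 48.4 and 41.2 in LT_102 (-2.19 ± 0.08, adjusted p = 1e-09, edgeR). EPSP synthase (LOC542727), the target of glyphosate, was at 798, 930 and 876 FPKM against 590, 572 and 470 (-0.72 ± 0.10). The spread between replicates was small beside both differences.

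The tryptophan branch differed by step. Anthranilate phosphoribosyltransferase, encoded by bf1, was at 132, 150 and 106 FPKM in LT_55 and 44.5, 42.7 and 39.6 in LT_102 (-1.66 ± 0.13). A tryptophan synthase alpha gene, LOC103644181, was at 17.3, 19.8 and 17.2 FPKM against 1.58, 1.98 and 2.15 (-3.27 ± 0.17). Both act between anthranilate and indole, and neither overlapped between the lines. The entry enzyme, anthranilate synthase, went both ways, with 1 lower and 1 higher of 3 alpha subunit genes. Of the steps in between, phosphoribosylanthranilate isomerase was higher in LOC100194071 (mean FPKM 2.52 and 5.97, 1.18) and not called in LOC100274239 (0.56), and neither indole-3-glycerol phosphate synthase gene was called, with -0.54 for LOC100272983 and -0.01 for LOC100274566. The beta subunit gene LOC732842 (chr4:37573579-37577471), which joins indole to serine, was at 5122, 5448 and 3670 FPKM against 2691, 2658 and 2308 (-0.94 ± 0.12), and LOC732803 at 971, 998 and 756 against 401, 399 and 297 (-1.36 ± 0.14). In the tyrosine branch the arogenate dehydrogenase gene LOC100281038 was at 32.2, 34.3 and 29.4 FPKM against 11.6, 11.8 and 8.58 (-1.63 ± 0.17). Line 102 was higher in a type 2 tryptophan synthase beta gene, LOC109623449, with 1.73, 1.4 and 1.07 FPKM in LT_55 and 11.8, 11.6 and 13.1 in LT_102 (3.08 ± 0.20). Both ordinary beta genes together summed to 5655 against 2918 FPKM, so the type 2 gene was small beside them. Tyrosine metabolism had 15 lower and 1 higher of 30 genes (-0.47) and phenylalanine metabolism 17 lower and 9 higher of 41 (-0.26).

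GO terms for carriers of amino acids and peptides were lower as well. They also hold genes described otherwise. Examples are LOC109940007 (pentatricopeptide repeat, 0.85, called higher) in the amino acid term and umc2749 (zinc finger, -0.26, not called) in the oligopeptide term. Amino acid transmembrane transport had 12 lower and 2 higher of 21 genes (median -0.80, and -0.81 at 25 °C), and oligopeptide transport 12 lower and 2 higher of 23 (-0.82, and -0.61). The amino acid permease LOC100283143 was at 10.4, 9.44 and 9.46 FPKM in LT_55 and 1.02, 1.73 and 0.956 in LT_102 (-3.01 ± 0.23), and the proline transporter LOC103650866 at 8.43, 8.82 and 7.9 against 2.21, 2.17 and 2.6 (-1.89 ± 0.13). A peptide transporter, LOC100281420 (chr6:150861720-150866544), was at 16.3, 18.2 and 14.7 FPKM against 2.9, 3 and 2.55 (-2.58 ± 0.15). Levels in line 102 were low in all 3 libraries of each gene. LOC100279387, a yellow stripe-like gene of the family that carries metal chelates, was at 193, 185 and 226 FPKM against 3.31, 3.51 and 7.26 (-5.46 ± 0.34), but it overlaps an antisense gene that was itself lower, and reads of the pair may not be separable. Another yellow stripe-like gene, ysl12, was higher by 1.52.

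**Figure D4:**
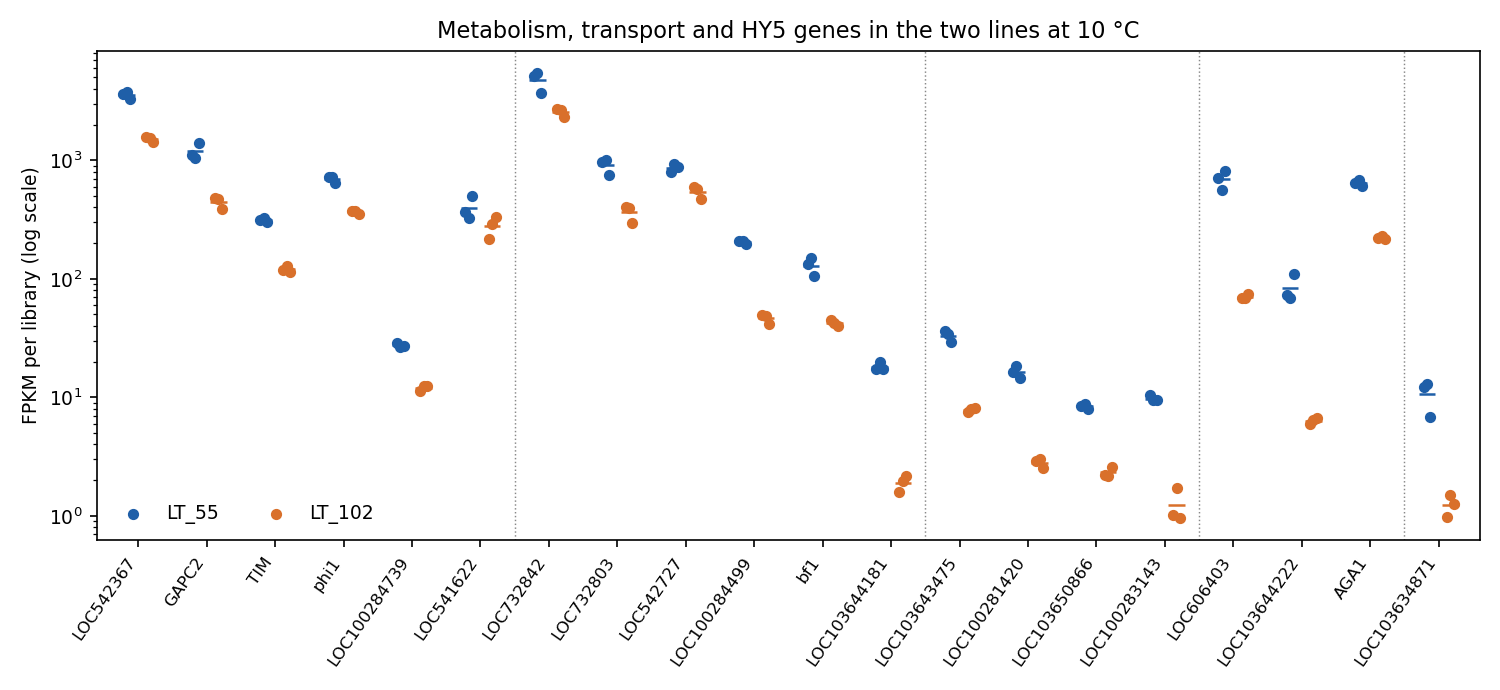
FPKM in each library at 10 °C (log scale) for genes of, from left to right, sugar phosphate metabolism, aromatic amino acid synthesis, transport, raffinose sugars and a HY5 gene, with LT_55 in blue, LT_102 in orange and bars at the means of 3 libraries. All genes drawn are lower in line 102 without overlap except LOC541622 (PEP carboxykinase), whose lines overlap between 327 and 331 FPKM.

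Sugars of the raffinose family protect membranes of dry seeds and are used up early in germination. Their genes went both ways, with the largest differences lower in line 102. Galactinol synthase (LOC606403, chr1:51977837-51979551), which makes the galactosyl donor, was at 707, 557 and 813 FPKM in LT_55 and 69.3, 68.3 and 74.5 in LT_102 (-3.34 ± 0.19, adjusted p = 2.4e-08, edgeR). LOC103644222, a raffinose synthase that transfers galactose from galactinol to sucrose, was at 72.6, 69.1 and 110 FPKM against 5.95, 6.4 and 6.65 (-3.77 ± 0.24). The alkaline alpha-galactosidase gene AGA1, which cleaves the same sugars and is filed in the same ortholog group, was at 640, 677 and 603 FPKM against 221, 231 and 215 (-1.57 ± 0.09). The lines were far apart in all 3 genes. The single well-measured gene of the other alpha-galactosidase ortholog group, LOC100191764, was higher in line 102, with a mean FPKM of 4.70 against 10.8 (1.15). All 4 well-measured genes of that group, AGA1 included, were lower, with summed levels of 940 and 252 FPKM, whereas of 2 galactinol synthase genes only LOC606403 was called. KEGG's galactose metabolism was balanced, with 25 lower and 22 higher of 84 and a median of 0.09.

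Proteins anchored in the membrane, here a mixed group with thaumatin-like, lipid-binding and metalloproteinase genes, had the lowest median of all terms described, -0.95 (-0.84 at 25 °C), with 14 lower and 1 higher of 23 genes. LOC100281152, with the doubtful description of a notch-like precursor, had the largest decrease, at 25, 23.1 and 31.2 FPKM in LT_55 and 1.96, 1.93 and 3.2 in LT_102 (-3.52 ± 0.23). Cutin, suberine and wax biosynthesis had 9 lower and 6 higher of 19 (-0.70, or -0.41 without the third replicate of LT_55). Its largest decreases were those of caleosins, calcium-binding peroxygenases of oil bodies. IDP1639 was at 172, 158 and 248 FPKM against 9.6, 10 and 9.06 (-4.38 ± 0.20), and LOC100285543 at 67.7, 46.9 and 170 against 8.15, 7.84 and 9.93 (-3.51 ± 0.46). Another caleosin, LOC100282316, went the other way, with 4.6, 4.75 and 2.89 FPKM in LT_55 and 25.3, 23.2 and 16.9 in LT_102 (2.37 ± 0.20). The largest increase of the term was that of LOC100272714, without an informative description. It was at 2.32, 2.55 and 1.04 FPKM in LT_55 and 25, 22.7 and 27.6 in LT_102 (3.63 ± 0.37).

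In the fatty acid and peroxisome pathways given here the counts also leaned to the lower side, with both directions in each. Other lipid pathways did not lean this way: sphingolipid metabolism had 20 lower and 19 higher genes, and steroid biosynthesis 7 lower and 11 higher. Biosynthesis of unsaturated fatty acids had 16 lower and 5 higher of 36 genes (-0.37), alpha-linolenic acid metabolism 16 lower and 4 higher of 42 (-0.30), and the peroxisome 35 lower and 21 higher of 122 (-0.20). Fatty acid elongation had 5 lower and 2 higher of 15 with a median of -0.45, but the median was 0.02 among members with a mean FPKM of at least 5 in both lines and -0.14 without the third replicate of LT_55. Acyl-CoA oxidases, which open peroxisomal beta-oxidation of stored oil, were split, with 6 lower and 3 higher of 12. LOC100382424 was at 45.9, 47.5 and 38.6 FPKM in LT_55 and 8.67, 6.97 and 5.95 in LT_102 (-2.66 ± 0.16), whereas LOC100272699, of the same ortholog group but described as an acyltransferase, was at 74.1, 73.7 and 64 against 172, 160 and 164 (1.18 ± 0.09). Their summed levels were 734 and 614 FPKM. The elongation reductase gene gl8, needed for leaf wax, was at 17.5, 16.7 and 19.9 FPKM against 8.18, 8.96 and 9.78 (-1.05 ± 0.13).

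Response to karrikin, a germination cue from smoke, had 22 lower and 5 higher of 42 genes (-0.73, and -0.71 at 25 °C). Pollen tube had 11 lower and 3 higher of 19 (-0.87) and the GO term for transcription factors that recruit RNA polymerase II factors 17 lower and 3 higher of 34 (-0.69). Among members with a mean FPKM of at least 5, the medians of the last 2 were -0.18 and 0.09, so the low medians came with the less expressed members. HY5 is a bZIP factor that promotes light responses. The HY5-like gene LOC103634871 (chr8:18247789-18249198) was at 12.3, 13.1 and 6.83 FPKM in LT_55 and 0.969, 1.51 and 1.26 in LT_102 (-3.14 ± 0.34), and LOC100192956 at 19.3, 23.5 and 11.9 against 6.5, 6.85 and 6.69 (-1.49 ± 0.25). The third replicate of LT_55 was the lowest of line 55 in both, yet above all of line 102.

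Chromatin genes were higher in line 102. Of 27 nucleosome genes 21 were higher and 2 were lower, with a median of 1.27 (1.17 at 25 °C) and summed mean FPKM of 686 in LT_55 and 2116 in LT_102. Nucleosome assembly, which shares 25 genes with this term, had 31 higher and 4 lower of 47 (0.94). Copies of histone genes can be nearly identical, and how reads were split between them is uncertain for single genes. Linker histones H1, which bind DNA between nucleosomes and differ more in sequence, were higher in 6 of 6 genes, by 1.15 to 2.18. The gene hon101 was at 183, 188 and 149 FPKM in LT_55 and 571, 589 and 574 in LT_102 (1.69 ± 0.12, adjusted p = 1.9e-07, edgeR). LOC103638138 (chr9:23694801-23695943) was at 137, 162.1 and 83.1 FPKM against 580, 596 and 601 (2.18 ± 0.22). For both, line 102 was tight at close to 600 FPKM while line 55 stayed below 200.

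Most of the other nucleosome genes were higher as well, but the core histone genes named here went in both directions. A histone H4 gene, LOC103633139, was at 15.2, 10.9 and 7.53 FPKM in LT_55 and 38.2, 36.6 and 47 in LT_102 (1.81 ± 0.21). Histone H3.2 gene LOC100502113 was at 1.67, 2.25 and 1.07 FPKM against 31, 29.4 and 23.4 (4.02 ± 0.29), but another H3.2 gene, LOC103646477, was at 18.3, 18.8 and 15.7 against 12.9, 11.9 and 8.82 (-0.70 ± 0.17, or -0.55 and no longer called without the third replicate of LT_102). These genes encode nearly the same protein, so their opposite differences may not be independent of how reads were assigned.

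The GO term histone deacetylase activity, the removal of acetyl marks from histones, had 12 higher and 0 lower of 19 genes (median 0.68, and 0.62 at 25 °C). Not all of its members are described as deacetylases. Among the others are the Sin3-like genes LOC103650483 (1.80, called higher), LOC103649898 (-0.04) and LOC103652148 (-0.48). The plant-specific HD2-type gene hdt103 (chr6:165376518-165379007), whose deposited description names an inositol polyphosphate phosphatase, was at 59.4, 67.2 and 82.9 FPKM in LT_55 and 334, 325 and 347 in LT_102 (2.22 ± 0.12, adjusted p = 2.1e-08, edgeR). The gene hdt102 was at 32.6, 28 and 35.7 FPKM against 51.8, 51.3 and 56.1 (0.68 ± 0.10), and rpd3 at 10.7, 9.91 and 11.1 against 19.1, 17.5 and 17.9 (0.74 ± 0.11). Not all moved: hda101 was at 89.3, 90.3 and 107 FPKM against 94.5, 91.9 and 94.5 (-0.08 ± 0.09, adjusted p = 0.46, edgeR), with overlapping lines.

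In terms for DNA unwinding and repair, more genes were higher than lower in line 102. DNA duplex unwinding had 10 higher and 1 lower of 17 genes (0.83, and 0.56 at 25 °C), base excision repair 19 higher and 8 lower of 44 (0.37) and homologous recombination 32 higher and 13 lower of 90 (0.32). The unwinding term also holds RNA-binding genes that are not repair genes, such as GRP (2.00), and in the last 2 terms fewer than 50% of genes were higher. Ku80 (pco139890, chr1:304956316-304964843), which with Ku70 holds broken DNA ends for joining, was at 4.71, 5.05 and 5.48 FPKM in LT_55 and 32.9, 29.1 and 26.4 in LT_102 (2.49 ± 0.14, adjusted p = 1.8e-08, edgeR). The Ku70 ortholog LOC100381505, which overlaps a neighbour, was at 13.5, 13.1 and 13 FPKM against 25.7, 27.4 and 25.1 (0.94 ± 0.12). Both subunits were thus higher in all 3 libraries of line 102.

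RAD50 and NBS1 form part of the complex that senses double-strand breaks. RAD50 (LOC103653563) was at 16.6, 14.9 and 15.4 FPKM in LT_55 and 33.2, 33.1 and 36.3 in LT_102 (1.08 ± 0.10), and the NBS1 ortholog LOC100501841 at 27.9, 33.8 and 35.7 against 74.1, 73.1 and 69.1 (1.10 ± 0.15). PARP3 (LOC103627237), a poly(ADP-ribose) polymerase abundant in seeds, was at 227, 208 and 282 FPKM against 972, 1029 and 1047 (2.04 ± 0.14). These 3 did not overlap between the lines. Replication protein A 70 (LOC103633553), which coats single-stranded DNA, was the lower member of the unwinding term, at 4.65, 4.31 and 2.28 FPKM against 2.05, 1.69 and 2.05 (-0.99 ± 0.30). DNA replication as a KEGG pathway was even, with 16 lower and 19 higher of 64 (-0.03, but up to 0.22 under an alternative).

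Other terms with high medians were nucleoid (10 higher and 1 lower of 16, median 0.95), positive gravitropism (11 higher and 3 lower of 18, 0.81, with the HY5-like gene among the lower members) and the CCR4-NOT complex that shortens poly(A) tails (7 higher and 0 lower of 17, 0.72, or 0.41 at a mean FPKM of at least 5). Chromosome segregation had 10 higher and 1 lower of 20 (0.65, and 0.29 at 25 °C). Steroid biosynthesis had 11 higher and 7 lower of 34 (0.32), and the pathway named by KEGG for AGE-RAGE signaling, a map drawn for human disease, 7 higher and 10 lower of 33 with a median of 0.30.

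Ribosome biogenesis had 45 higher and 12 lower of 126 genes (0.39, and 0.33 at 25 °C). The processing factor BMS1 (LOC103634616) was at 389, 389 and 254 FPKM in LT_55 and 831, 804 and 839 in LT_102 (1.22 ± 0.14), and LOC103649658, a protein of the small-subunit processome, at 230, 210 and 155 against 715, 642 and 725 (1.76 ± 0.14). The RNA cytidine acetyltransferase gene LOC109941429, which modifies ribosomal RNA, was at 93, 95.4 and 80.1 FPKM against 337, 323 and 312 (1.81 ± 0.10). The core small nucleolar ribonucleoprotein NOP5-2 (LOC103639139) was at 62.8, 62.2 and 64.7 FPKM against 201, 180 and 189 (1.54 ± 0.08). In every case the lowest library of line 102 was above the highest of line 55. Among the exceptions, the Ran GTPase gene TIDP3014 was lower by 0.81 on the log2 scale while its relative LOC103630761 was higher by 1.80.

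Ribosomal proteins moved less. The ribosome pathway had 113 higher and 54 lower of 429 genes (0.27, and 0.13 at 25 °C), and the GO term translation 76 higher and 52 lower of 308 (0.25). A single 40S protein gene, LOC103629822 (RPS24), stood out at 25.5, 28.6 and 33.1 FPKM against 310, 310 and 295 (3.34 ± 0.17). Ribosomal proteins are encoded by several near-identical copies, and a sum over copies was not made.

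**Figure D5:**
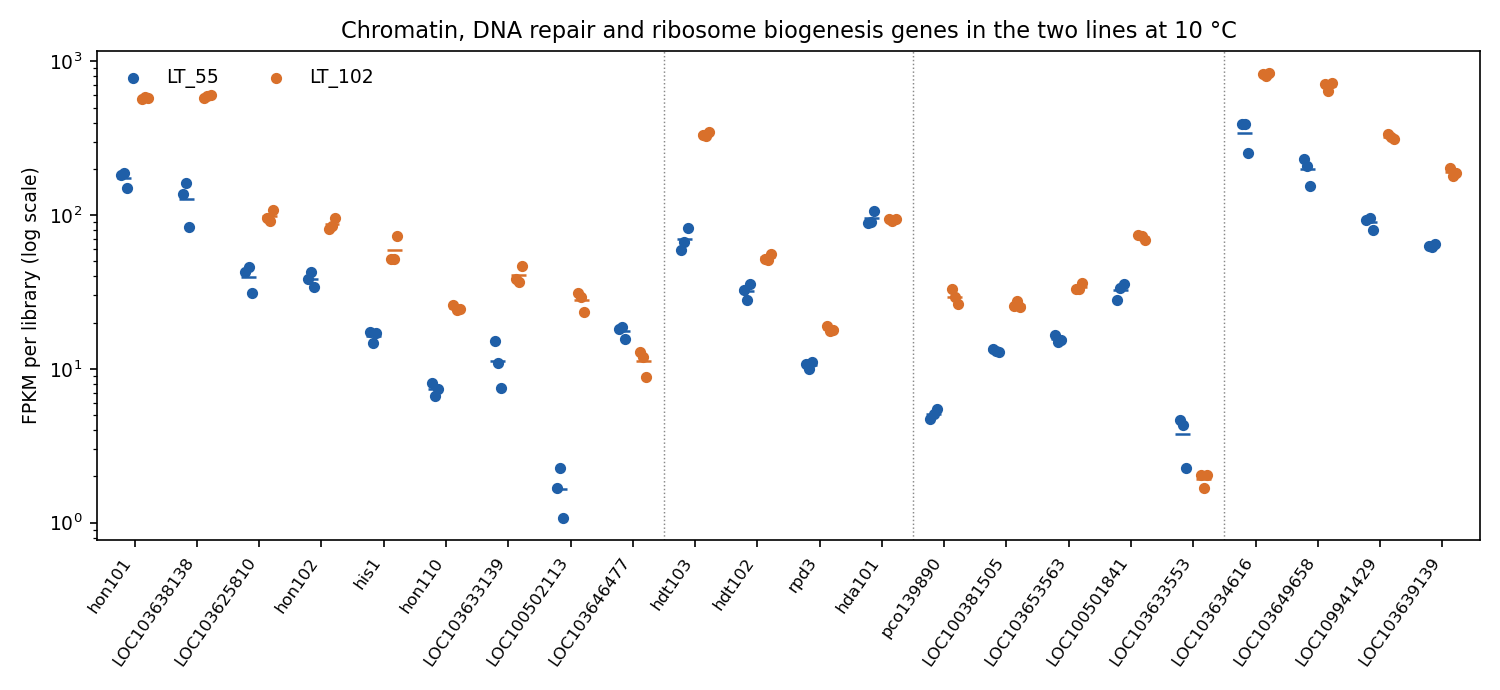
FPKM in each library at 10 °C (log scale) for genes of, from left to right, histones, histone deacetylases, DNA repair and ribosome biogenesis, with LT_55 in blue, LT_102 in orange and bars at the means of 3 libraries. Line 102 is higher without overlap in most genes drawn, lower in LOC103646477 and LOC103633553, and overlapping with line 55 in hda101.

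Terms named for cold and stress showed small medians, and the shares called were near that of all well-measured genes. They ran from 38.9% (defense response) to 46.6% (response to cold), against 42.8% of all well-measured genes. Of 174 genes annotated to response to cold, 58 were lower and 23 higher in line 102 (46.6% called, median -0.21, and -0.12 at 25 °C). Cold acclimation was even, with 6 lower and 6 higher of 29 (0.08). Response to heat had 42 lower and 22 higher of 140 (-0.11), response to water deprivation 52 and 35 of 189 (-0.05), response to abscisic acid 58 and 45 of 239 (-0.10), response to oxidative stress 36 and 15 of 110 (-0.20), and defense response 58 and 38 of 247 (-0.15). In signaling pathways, MAPK signaling had 60 lower and 24 higher of 193 (-0.21), hormone signal transduction 79 and 60 of 303 (-0.11), plant-pathogen interaction 56 and 35 of 213 (-0.15) and the circadian clock 29 and 15 of 93 (-0.17).

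Dehydrins and other LEA genes, the classic protective proteins of dry seeds, did not move as a block. Apart from the first, these genes were chosen after their values were seen. A gene described as cold shock protein CS66-like (LOC109941454, chr8:99105742-99106896) was at 6.58, 6.47 and 6.96 FPKM in LT_55 and 122, 143 and 135 in LT_102 (4.28 ± 0.14, adjusted p = 3.8e-10, edgeR). Dehydrin DHN4 (LOC103635599) was at 3.32, 3.44 and 4.3 FPKM against 25.3, 28.9 and 24.2 (2.78 ± 0.18). Both were thus several times higher in the sensitive line. The abundant dehydrin dhn1 was at 2461, 2684 and 1951 FPKM against 3055, 3392 and 3124 (0.39 ± 0.13, not called), and LOC542193 at 1218, 1251 and 1278 against 1303, 1294 and 1156 (-0.04). Of the LEA D-34 genes, LOC100280847 was lower in line 102, at 1348, 1412 and 1235 FPKM against 431, 476 and 422 (-1.63), and LOC103631743 was higher, at 1060, 1180 and 1239 against 3153, 3662 and 3341 (1.5).

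Several regulators and stress genes named within these terms were lower in line 102. A NAC83-like factor (LOC103640879) was at 16, 24.8 and 11.4 FPKM in LT_55 and 1.22, 1.16 and 0.859 in LT_102 (-4.05), and a small heat shock protein gene (LOC100191552) at 49.1, 74.1 and 13.7 against 3.27, 2.94 and 2.2 (-4.06). A protein phosphatase 2C gene (LOC100285223), of the family that restrains abscisic acid signaling, was at 7.83, 8.1 and 9.76 FPKM against 1, 0.949 and 1.32 (-3.01). Line 55 itself varied by more than 5-fold in the heat shock gene. Higher in line 102 were the bZIP factor gene bZIP84, described as an ocs element-binding factor, at 4.95, 4.66 and 4.04 FPKM against 93, 95.2 and 95.3 (4.33), and the MAP kinase MPK17-2, at 25.9, 25 and 28.9 against 101, 96.5 and 97.9 (1.84).

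Seed and storage terms were near balance. Seed germination had 9 lower and 13 higher of 54 genes (0.19), seed development 10 and 10 of 36 (-0.14), nutrient reservoir activity 2 and 4 of 10 (-0.04) and lipid storage 3 and 2 of 13 (-0.16). In metabolism, starch and sucrose had 52 lower and 40 higher of 197 (-0.10), glyoxylate and dicarboxylate metabolism 27 and 6 of 69 (-0.29), glutathione 32 and 13 of 92 (-0.14), phenylpropanoids 28 and 20 of 96 (-0.15), flavonoids 11 and 2 of 36 (-0.34) and sphingolipids 20 and 19 of 86 (0.07). Organelle terms were balanced, with 441 lower and 347 higher of 1843 chloroplast genes (-0.05), 272 and 317 of 1414 mitochondrial genes (0.01), 28 and 21 of 150 in oxidative phosphorylation (-0.11) and 7 and 6 of 33 in photosynthesis (0.18).

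Some functions differed little between the lines. Only 9.5% of 21 mRNA transport genes were called, 1 in each direction, 10.5% of 19 aldehyde dehydrogenase genes and 12.5% of 24 protein refolding genes, against 42.8% of all well-measured genes. In the proteasome, which degrades tagged proteins, 15 were lower and 14 higher of 106 (27.4%), and in mRNA surveillance 26 were lower and 21 higher of 196 (24%). Protein folding was even, with 43 lower and 34 higher of 198, as was the spliceosome (56 higher and 47 lower of 292, 0.08), and protein processing in the endoplasmic reticulum had 70 lower and 37 higher of 322 (-0.10). At the other end, 68.8% of 16 water channel genes were called, 7 lower and 4 higher, and 60.7% of 28 thiamine metabolism genes, 7 lower and 10 higher.

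Nearly all of these line differences were also there at 25 °C. Of the 3797 genes lower in line 102 at 10 °C, 3042 were called lower at 25 °C too, 754 were not called and 1 was called higher, and 3745 had the same sign. Of the 3314 higher genes, 2660 were called higher at 25 °C, 653 were not called and 1 was called lower. The median log2 fold changes of the lower genes were -1.10 at 10 °C and -0.99 at 25 °C, and those of the higher genes 1.02 and 0.95. These genes were chosen by their values at 10 °C, and well-measured genes by their levels there. Somewhat larger medians and more calls at 10 °C can follow from that choice alone. At 25 °C 39.7% of well-measured genes were called, 3418 lower (20.6%) and 3173 higher (19.1%), and 887 genes were called only there. Each temperature has its own 6 libraries, although the fit shares its estimate of spread.

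The difference between the line effects at 10 °C and at 25 °C was tested gene by gene. It passed an adjusted p below 0.05 in 1 well-measured gene (0.00602%) with edgeR, an unadjusted p below 0.05 in 931 (5.60%) and DESeq2's adjusted p below 0.05 in 65. The gene was LOC100273332 (chr6:103351592-103352548), with a GO term for assembly of respiratory complex IV. At 10 °C it was at 12.9, 12 and 11.4 FPKM in LT_55 and 16.7, 17.8 and 13.3 in LT_102 (0.35 ± 0.13, not called), and at 25 °C at 14, 14.4 and 13 against 60.7, 63.3 and 47.3 (1.99 ± 0.13, interaction adjusted p = 0.023, edgeR). Line 102 was thus far above line 55 only in the libraries kept warm. Leaving out single libraries at 10 °C, the number of such genes ranged from 0 to 3, and it was 0 without the first or second replicate of LT_55 or the first of LT_102.

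Of the 6 genes called at 10 °C with the lowest interaction p, 3 in each direction, 4 differed more in the cold and in the same direction at 25 °C, and the fructose-bisphosphatase gene above is among these. Only genes called at 10 °C could enter, so a gene that differed mainly at 25 °C was left out by the rule. The larger difference in the cold is therefore largely fixed by the choice and is not a result. LOC103632738 (chr7:115407049-115412263) was at 67.3, 73 and 63.5 FPKM in LT_55 and 15.7, 17.4 and 20 in LT_102 at 10 °C (-1.98), and at 53, 64.6 and 70.5 against 58.8, 42.6 and 37.6 at 25 °C (-0.49, interaction adjusted p = 0.073, edgeR). LOC100280338 was at 7.6, 6.83 and 6.46 FPKM against 31, 27.2 and 24.5 at 10 °C (1.94), with 1.12 at 25 °C, and LOC103641379 at 1.5, 1.65 and 1.62 against 8.81, 7.86 and 7.43 (2.28), with 1.32 at 25 °C. These 3 genes have no informative description. None of the 6 interactions passed the adjusted threshold.

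Called genes were spread over the genome. The share of well-measured genes called was 40.4% on chromosome 3, the lowest, to 45.5% on chromosome 9. Over 184 windows of 10 Mb with at least 30 genes the median was 43.0% and the middle 50% of windows lay between 38.3% and 46.7%. The least different window was on chromosome 5, from 40000001 to 50000000, where 11 of 59 genes were called (18.6%, and 22.0% at 25 °C). The most different was on chromosome 7, from 80000001 to 90000000, with 20 of 30 (66.7%, and 53.3% at 25 °C). With so few genes in a window, these extremes are a description of the spread between windows. A window on chromosome 6, from 10000001 to 20000000, differed most between the temperatures' shares among those named here. At 10 °C 24 of its 42 genes were called (57.1%), 22 higher and 2 lower, against 7 (16.7%) at 25 °C. Its median absolute log2 fold change, 0.95, was the highest of the windows. It was picked after its values were seen, and its cause was not tested.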

How the data were processed

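Embryos of line 55 and line 102 (3 libraries each at 10 °C and at 25 °C, labelled as separate samples; the methods call them biological replicates) were sequenced as poly(A) RNA. In the deposited table the authors gave raw read counts per gene and FPKM, normalized by the authors to transcript length and mapped reads, on B73 RefGen_v4; per the submitters' processing notes HISAT, StringTie and edgeR were used, and versions and strand setting are not given in the sources used here. Of counts between 1 and 20, 42.6% were multiples of 4, and dividing counts by 4 was tried. Columns with the authors' fold changes and p values were not used. Gene positions, descriptions, GO and KEGG terms are those of the deposited table.

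Counts were fitted in R 4.3.3 with edgeR 4.0.16 (TMM, quasi-likelihood test, 4 groups, all 12 libraries) for the 22985 genes that reached an FPKM of 0.5 in 3 or more libraries. A gene was called when it differed by 1.5-fold or more with p below 0.05 before adjustment; Benjamini-Hochberg adjustment ran over all tested genes. Standard errors are the log2 fold change divided by the root of the F value. The fit was tested on simulated counts of 22985 genes, with 100 changed by a log2 of 1 and 100 by a log2 of 2. At 1.5-fold and an adjusted p below 0.05 (edgeR), 77% and 95% of these were called, and 6.01% of calls were false. Far fewer genes were changed there than the 51.1% called here, so the simulation does not show how the fit behaves with so many differences. P values measure the spread between these libraries. Depth (47148886 to 67873652 counts at 10 °C) limits genes near 1 FPKM most.

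Genes are named by rule. The rules took the 8 largest differences in each direction and the largest in each direction in each term. For both, a description, an adjusted p below 0.05 (edgeR) and no overlap between the lines were required. The rules also took the 10 most abundant called genes and up to 3 in each direction with the lowest interaction p. The other genes were chosen after their values were seen. The members, terms and lists were chosen with earlier results of these data known. Alternatives were other scaling (size factors), DESeq2 1.42.0, limma 3.58.1 on log2(FPKM + 0.1) and log2(FPKM + 1), no filter, stricter thresholds, a replicate block, only the 6 libraries at 10 °C, each of these libraries left out, and, added after seeing the data, counts divided by 4.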

Additional observations from a re-analysis of the deposited data

Results flagged for a closer look

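Among the named genes, 5 had a line difference at 10 °C that stood apart from that at 25 °C. LOC100273332 was the only well-measured gene whose line by temperature interaction passed an adjusted p below 0.05 in edgeR (interaction -1.65 on the log2 scale, adjusted p = 0.023): line 102 was higher by 0.35 at 10 °C and by 1.99 at 25 °C.

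The other 4 had groups that did not overlap at either temperature and opposite directions, and none of their interactions passed the adjusted threshold in edgeR. LOC100274132, described in part as a DNAJ protein, was at 10.4, 12.1 and 11 FPKM in line 55 and 24.4, 20.1 and 18.8 in line 102 at 10 °C (0.87), but at 16.2, 16.3 and 16.3 against 12.5, 15.6 and 13.8 at 25 °C (-0.26, interaction adjusted p = 0.079). LOC100276484, a pyrrolidone-carboxylate peptidase gene, was at 1.74, 1.47 and 1.73 FPKM against 0.945, 1.11 and 0.993 at 10 °C (-0.74) and higher in line 102 by 0.49 at 25 °C (interaction adjusted p = 0.079). The BCS1-like gene LOC100281434, of a family of mitochondrial AAA ATPases, differed by 0.92 at 10 °C and by -0.92 at 25 °C (interaction adjusted p = 0.29), where its libraries of line 55 ranged from 26.5 to 60.7 FPKM. LOC103629573, a gene of the SRS family of developmental regulators, differed by -0.62 at 10 °C and by 0.76 at 25 °C (interaction adjusted p = 0.33), and its call at 10 °C was lost without the first replicate of either line (-0.55 and -0.51). These 4 genes were flagged because the order of the lines at 10 °C was the reverse of that at 25 °C. The reversal is therefore part of the choice and not a result. In line 102 at 10 °C, LOC100276484 was also close to the limit of 1 FPKM for well-measured genes.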

How the results depend on the processing

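The counts of well-measured genes called at 10 °C stayed within 1.5 times of 3797 lower and 3314 higher except where the rule itself was stricter: a log2 fold change of at least 1 left 2148 lower and 1716 higher, and a mean FPKM of at least 5 in both lines left 2289 lower and 1845 higher of 11192 genes. The small excess of lower genes turned with limma on log2(FPKM + 0.1), which called 3470 lower and 3634 higher, and with limma on log2(FPKM + 1), which called 3182 lower and 3287 higher. Leaving out each library in turn gave 3535 to 3790 lower and 3239 to 3491 higher. The line by temperature interaction passed in 1 well-measured gene with edgeR, in 65 with DESeq2, in 3 with the replicate block and in 0 to 3 with a library left out. Library numbers were not taken as pairs, since deviations of same-numbered libraries of LT_55 and LT_102 correlated at only 0.0076 to 0.063. Over all groups same-numbered libraries ranged from -0.055 to 0.244, the highest being replicate 3 of CT_55 and LT_55 (0.244) and then replicate 2 (0.157), and differently numbered ones from -0.227 to 0.085. The replicate block called 3775 lower and 3352 higher. Of 231 named genes none turned its direction under any alternative run, and 15 lost their call under at least 1, among them glb1, adh1 and LOC542285. Of 80 term medians 15 changed sign under some alternative, all near 0 in the first place except fatty acid elongation (0.02) and the factor-recruiting term (0.09) at a mean FPKM of at least 5. Among these 15, DNA replication went from -0.03 to as much as 0.22 and thiamine metabolism from 0.12 to as little as -0.21. The cause of these changes was not tested. No scaling moved the median of all genes by 0.1.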
